A study of Mus musculus with 3 samples.

Results

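The genes described here encode the machinery of oxidative phosphorylation: every gene whose symbol begins with Nduf, Uqcr, Atp5, Cox4i, Cox5, Cox6, Cox7 or Cox8, which lie in the nucleus, or with mt-Nd, mt-Co, mt-Atp or mt-Cytb, which lie on mitochondrial DNA. The symbols chose 101 of the 27998 genes measured, 88 of them nuclear and 13 mitochondrial, and no measured value entered the choice. Among the nuclear members, 38 carried the symbols of complex I subunits, 7 those of complex I assembly factors (Ndufaf), 8 of complex III, 18 of complex IV and 17 of complex V. Of the mitochondrial members 7 belong to complex I, 1 to complex III, 3 to complex IV and 2 to complex V. The roles follow the symbols, which are not exact for every gene: Ndufa4 is now counted with complex IV, and Ndufab1, Cox7a2l, Atp5s and Atp5sl are not classical subunits. Cyc1, Cycs and the genes of complex II lack these prefixes and are given separately.

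The study profiled dissociated lungs of C57BL/6 female mice aged 10 to 12 weeks by droplet single-cell RNA sequencing, with 1 library for each of 3 groups. NI was the control without irradiation, while CONV and FLASH came from mice given 17 Gy to the thorax with 4.5 MeV electrons under isoflurane, at a conventional dose rate or in the ultra-high dose rate mode called FLASH. The sources used here give neither the number of mice per library nor the time after irradiation. With 1 library per group no test between groups was possible: differences are given as higher or lower, and all intervals, in brackets, are at 95% and cover counting error only.

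The respiratory chain passes electrons from NADH and ubiquinol to oxygen through complexes I, III and IV, which pump protons across the inner mitochondrial membrane, and complex V makes ATP from the returning flow. Most subunits are encoded in the nucleus, transcribed singly and imported. The catalytic and proton-pumping cores of complexes I, III, IV and V include subunits encoded in mitochondrial DNA, which is transcribed from both strands as long precursors that are then cleaved. Some complex IV subunits have tissue-restricted paralogs. In the lung, surfactant-producing alveolar type 2 (AT2) cells and beating ciliated cells are known to be rich in mitochondria.

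After filtering, 6346 of 6662 barcodes were kept: 1705 in NI, 2388 in CONV and 2253 in FLASH. The libraries differed in depth, with a median of 2960 unique molecular identifiers (UMIs, each standing for 1 captured molecule) per barcode in NI, 2351 in CONV and 1776.5 in FLASH, and of the barcodes 1.76%, 2.55% and 2.46% exceeded the limit of 10% mitochondrial UMIs. Clustering without the 101 members gave 27 clusters, which were named from markers and are read as "like" the type named. Of the 27, 4 stayed unnamed and are called by leading genes. Of the resulting classes, 17 held at least 20 cells in every library and 8 held at least 40. The T-like class, with 640 cells in NI, 319 in CONV and 271 in FLASH, stood apart. Of its control cells, 498 lay in clusters with markers of immature T cells, Dntt among them. Of these, 98 and 221 lay in clusters with Rag1 and Rag2, the latter also with markers of dividing cells, which held 0 CONV and 0 FLASH cells. The other 179 lay in a cluster marked by Dntt and the CD4 T markers Cd4, Icos and Tnfrsf4 but not by Rag1 or Rag2. That cluster held the 18 CONV and 10 FLASH cells. T-like values are therefore also given for the 1 cluster that all libraries filled (142, 301 and 261 cells). Pairs of libraries shared between 5 and 7 cell barcodes.

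Mitochondrial transcripts outnumbered nuclear ones although they came from far fewer genes. Over all kept cells the 88 nuclear members gave 423326 UMIs and the 13 mitochondrial members 690335. Nuclear members took 2.38% of UMIs in NI, 2.12% in CONV and 2.11% in FLASH, and mitochondrial members 3.76%, 3.55% and 3.48%. The nuclear sum per mitochondrial UMI was 0.635, 0.596 and 0.606, so NI was highest on all 3 measures in this mixture of cell types. The suspensions also differed in their makeup, as the T-like counts show. The classes below hold that apart between classes but not within a class of mixed cells, such as the T-like one.

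Levels of single genes are in CPM, the UMIs of the gene per 1000000 UMIs of the same cells. These are counts of tags at the 3′ end of transcripts, which do not scale with transcript length, so CPM was not divided by length. The median nuclear member stood at 204 CPM and the median mitochondrial member at 2640. Assembly factors were the least abundant nuclear group, with a median of 22.4 CPM against 180 for complex I, 332 for complex III, 337 for complex IV and 318 for complex V. Of the 88 nuclear members 87 were detected. No UMI was seen of Cox8c, a paralog of Cox8a, and 1 of Cox7b2, a paralog of Cox7b.

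In complex I the 3 most abundant nuclear members were small accessory subunits by symbol. Ndufa4 stood at 542 CPM in NI, 452 in CONV and 475 in FLASH, and Ndufa3 at 442, 360 and 375. Ndufa2 was nearly level, at 407, 419 and 409. In complex III, the hinge protein Uqcrh was at 603, 504 and 506 CPM, Uqcrb at 440, 402 and 432, and Uqcr11 at 408, 402 and 387. In complex IV, Cox4i1, the common form of subunit 4, was the most abundant nuclear member, at 1003, 1032 and 1015. It was followed by Cox8a at 775, 802 and 780 and Cox6c at 747, 752 and 783, so the leading complex IV genes lay within a narrow band across libraries. In complex V, Atp5l was at 714, 664 and 663 CPM, Atp5e at 647, 643 and 622, and Atp5h, a subunit of the peripheral stalk, at 580, 433 and 444.

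The mitochondrial members spanned a far wider range, from mt-Atp6 at 8209, 7012 and 6845 CPM (NI, CONV, FLASH) to mt-Nd6, the one member on the other strand, at 10.6, 8.72 and 8.86. mt-Co3 stood at 7224, 6366 and 6269, mt-Co1 at 5870, 6441 and 6379 and mt-Co2 at 3423, 3246 and 3169. Cytochrome b, mt-Cytb, was at 4343, 3563 and 3492. The complex I genes mt-Nd1 and mt-Nd4 were highest in NI, at 3374, 3043 and 2931 and at 2703, 2645 and 2550. By contrast mt-Nd2 was at 1335 CPM in NI against 1889 in CONV and 1897 in FLASH. The low-abundance mt-Nd3 (502, 590 and 576), mt-Nd5 (293, 338 and 312), mt-Nd4l (147, 185 and 190) and mt-Atp8 (119, 141 and 150) were also lower in NI. On the mitochondrial genome of mm10, mt-Atp8 and mt-Atp6 overlap by 43 bases, mt-Nd4l and mt-Nd4 by 7, and mt-Nd5 and mt-Nd6, on opposite strands, by 14. How the authors' counting split reads between these pairs, nuclear copies of mitochondrial sequence, or pseudogenes of small subunits was not tested.

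The cell classes differed in both sums, and their order was not the same for nuclear and mitochondrial members. AT2-like cells carried the highest mitochondrial share, 5.37% of their UMIs in NI, 5.15% in CONV and 4.99% in FLASH, with an unremarkable nuclear share of 2.05%, 2.04% and 2.03%. Ciliated-like cells were high on both counts, at 3.36%, 2.86% and 3.29% nuclear and 4.76%, 4.16% and 4.33% mitochondrial. Smooth muscle- or myofibroblast-like cells were likewise high, at 2.93%, 3.10% and 2.81% nuclear and 4.86%, 4.05% and 3.85% mitochondrial. Club-like cells, secretory cells of the airway, had the lowest nuclear share of the 17 classes, at 1.36%, 1.31% and 1.19%, with 2.86%, 2.90% and 2.77% mitochondrial. They were also the deepest class, with medians of 23306, 11978 and 12657.5 UMIs per cell, and the part of depth in their low nuclear share was not tested.

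**Figure D1:**
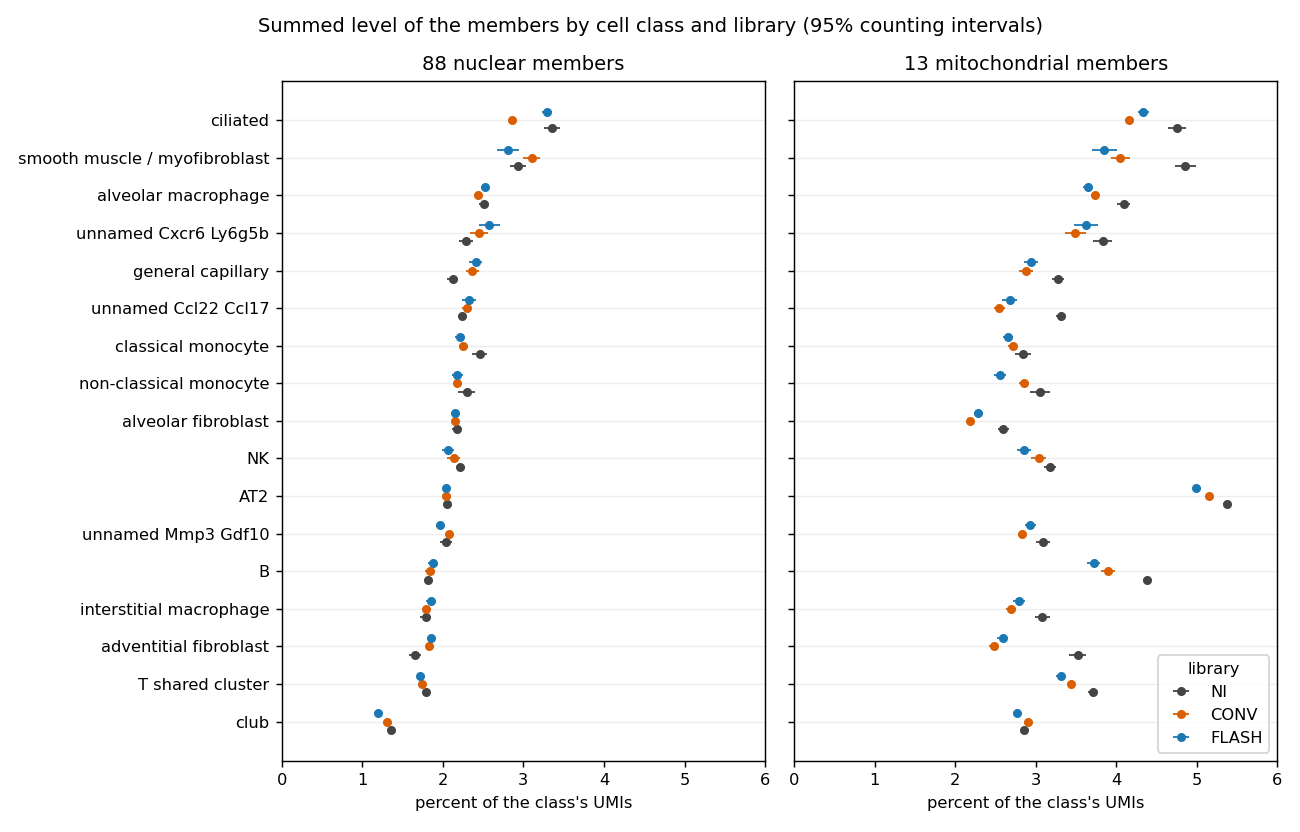
Percent of all UMIs of a class that came from the nuclear members (1 panel) and from the mitochondrial members (the other), by class (vertical axis, classes with at least 20 cells in every library, the shared T-like cluster standing for the T-like class) and library (1 point each, with exact 95% binomial intervals for counting error). AT2-like cells sit at the top of the mitochondrial panel, at 5.37%, 5.15% and 4.99%, but near 2% in the nuclear one.

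The nuclear sum per mitochondrial UMI made the difference plain. It was 0.382 in NI, 0.397 in CONV and 0.407 in FLASH for AT2-like cells, against 0.837, 0.985 and 0.938 for alveolar fibroblast-like cells. Across the 17 classes the nuclear and mitochondrial percentages were only loosely related, with Pearson's r of 0.41 in NI, 0.33 in CONV and 0.41 in FLASH and Spearman's rho of 0.31, 0.30 and 0.31. The nuclear complexes followed one another more closely: r between the summed levels of any pair of complexes I, III, IV and V lay between 0.78 and 0.95. These correlations describe 17 classes that share a library and its depth, and carry no test.

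Member by member the pattern was similar. With the 3 libraries pooled, the highest class was the smooth muscle- or myofibroblast-like one for 26 of the 88 nuclear members, the ciliated-like one for 23, alveolar macrophage-like for 10 and T-like for 8, and club-like cells were lowest for 55. Taken library by library, the same class was highest in all 3 for 7 of those 26, 13 of the 23, 3 of the 10 and 1 of the 8. The other 7 T-like members were highest there in at most 1 library, among them Atp5h. Of the 13 mitochondrial members, 9 were highest in AT2-like cells with the libraries pooled, 5 of them in every library, and 2 in ciliated-like cells. Some nuclear members stood well above the rest of the classes in ciliated-like cells. Ndufc2, a membrane-arm subunit of complex I, reached 758 CPM there against a median of 213 over the 17 classes, Ndufab1, the mitochondrial acyl carrier protein, 416 against 142, and the assembly factor Ndufaf3 194 against 40.3. Uqcr11 reached 701 CPM in the same cells against 342. Other members peaked elsewhere: Ndufa5 at 385 CPM in the smooth muscle- or myofibroblast-like class against a median of 127, Cox5a at 630 in alveolar macrophage-like cells against 270, and Cox7a2l, a factor of respiratory supercomplexes, at 738 in T-like cells against 389. On the mitochondrial side mt-Co1 stood at 10045 CPM in AT2-like cells against a median of 5205, mt-Nd2 at 3177 against 1139, and mt-Cytb at 5991 in ciliated-like cells against 2957.

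**Figure D2:**
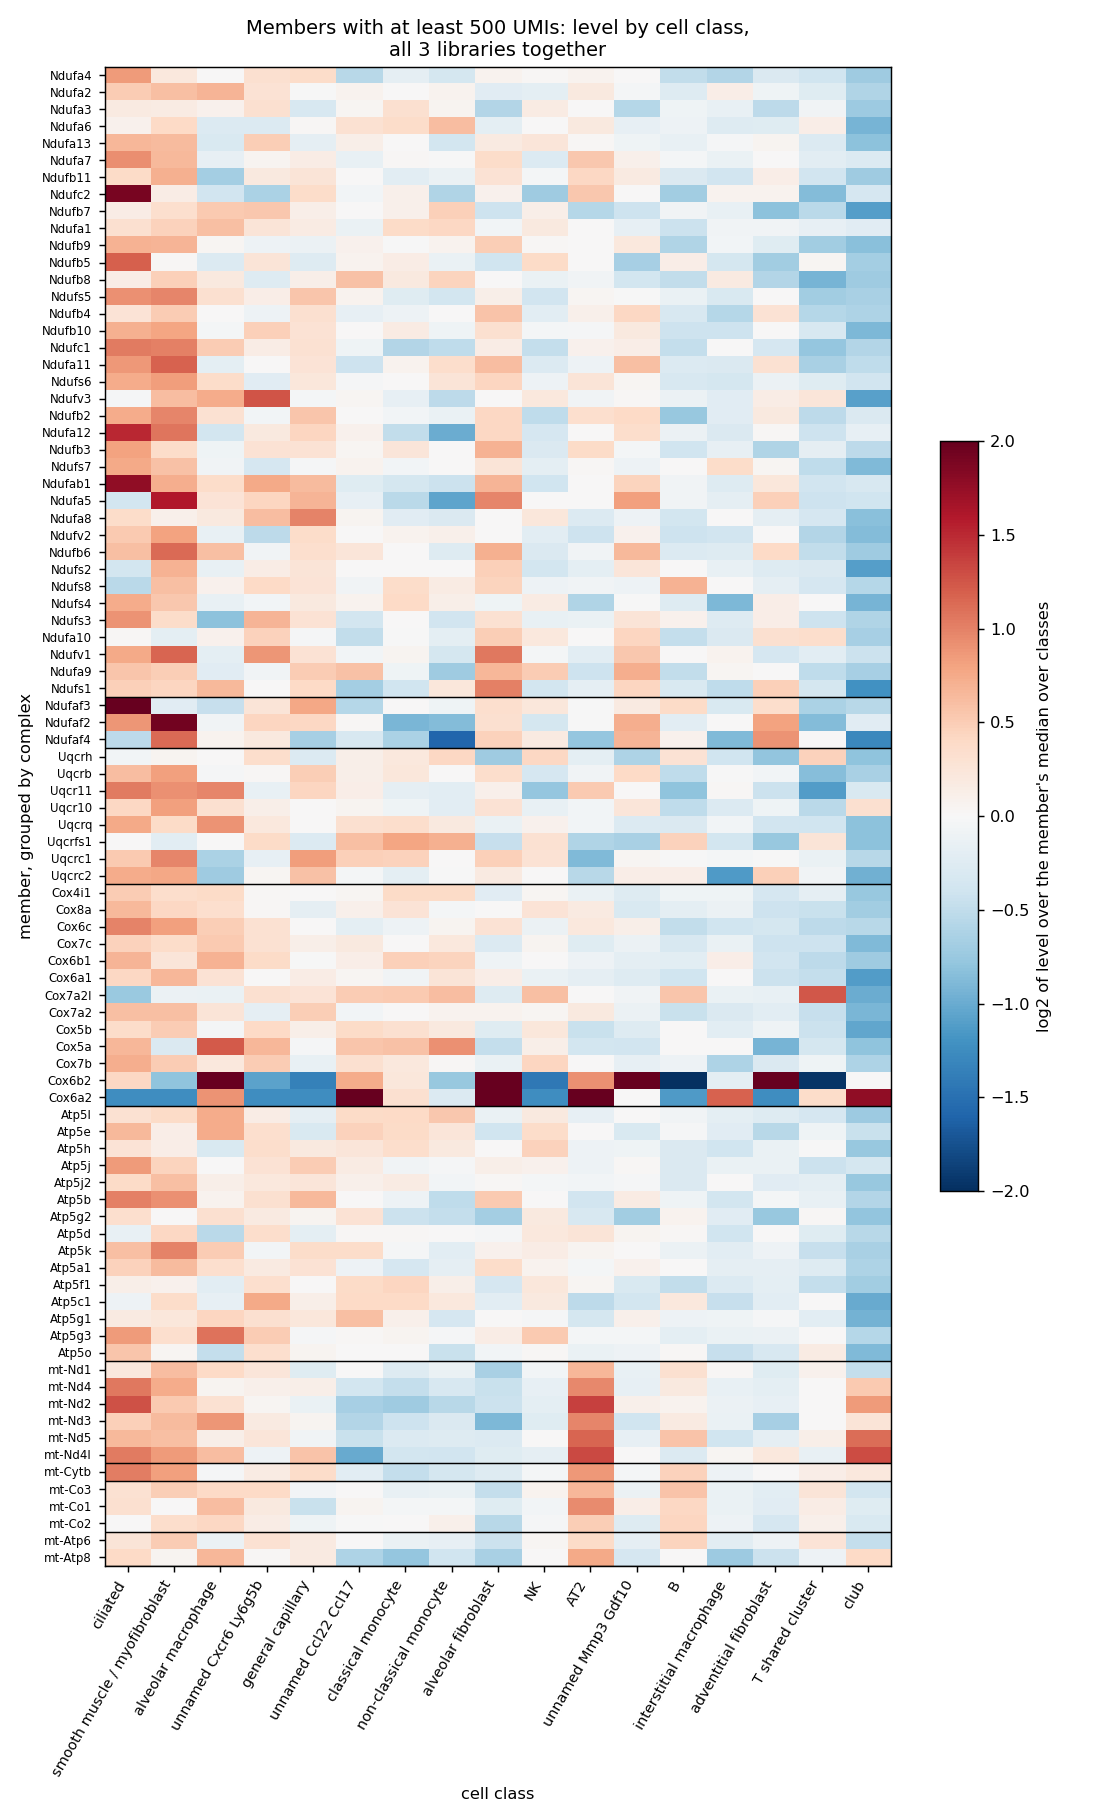
Heatmap of the level of the 88 of 101 members with at least 500 UMIs (rows, grouped by role and genome) in 17 classes (columns), as log2 of CPM over the median of that member across classes, with the colour limited at 2 in both directions. The shared T-like cluster stands for the T-like class. The columns of ciliated-like and smooth muscle- or myofibroblast-like cells are high across many nuclear members, and the AT2-like column is high in the mitochondrial block.

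Tissue-restricted paralogs of complex IV and related subunits set single classes apart much more sharply than the sums did. For each, the share of the paralog in the UMIs of the pair it forms with its common counterpart is given. Cox6a2, known as the heart and skeletal muscle form of subunit 6a (chr7:128205435-128206387, minus strand, mm10), made up 25.1% of the Cox6a2 and Cox6a1 UMIs of AT2-like cells in NI, 25.8% in CONV and 23.3% in FLASH, nearly level across libraries. Of the AT2-like cells 35.8% (32.6 to 39.1) held at least 1 UMI of Cox6a2 at a median depth of 3729 UMIs. In the shared T-like cluster, the background for free RNA in the droplets, the share of cells was 0.568% at a median depth of 1724, and Cox6a2 made up 0.78% of the pair. The ciliated-like cells, with a median depth of 3933, gave 1 UMI of Cox6a2 in 1 cell.

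The second class with Cox6a2 was an unnamed cluster led by Ccl22 and Ccl17 that carried dendritic cell markers, at 22.1%, 20.4% and 31.6% of the pair. There the gene was concentrated in few cells. Among the 27 cells with a UMI of Siglech, a marker of plasmacytoid dendritic cells, 22 held Cox6a2 and it made up 69.3% (61.3 to 76.6) of the pair. Among the 116 other cells of the cluster 1 held it, and it made up 0.329%. This split was chosen after the values were seen. Of the Siglech-positive cells 9 came from NI, 10 from CONV and 8 from FLASH.

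Cox6b2, a form of subunit 6b known from testis (chr7:4751792-4753094, minus strand), marked fibroblast classes. It made up 36.7%, 36% and 36.4% of the Cox6b2 and Cox6b1 UMIs in alveolar fibroblast-like cells and 25%, 41.5% and 38.8% in adventitial fibroblast-like cells, of which NI held 30. The unnamed cluster led by Mmp3 and Gdf10 held 4 of the 7 alveolar fibroblast markers and also the adventitial fibroblast markers Dpt, Col14a1 and Clec3b. Its shares were 35.1%, 49.3% and 54.9%. Mesothelium-like cells stood at 25.6% and alveolar macrophage-like cells at 13.4% over all libraries, against 1.44% in B-like cells and 1.88% in the shared T-like cluster. In AT2-like cells Cox6b2 rested on fewer molecules: it was at 34.0 CPM in NI (30 UMIs), 52.7 in CONV (83 UMIs) and 59.1 in FLASH (63 UMIs), or 7.21%, 9.67% and 10.8% of the pair. Over all kept cells Cox6b2 stood at 40.1, 93.5 and 93.2 CPM, and alveolar fibroblast-like cells numbered 70, 237 and 193.

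Cox8b, known from heart and muscle (chr7:140898945-140900446, minus strand), was a narrower mark of alveolar fibroblast-like cells. It made up 9.79%, 10.3% and 8.46% of the Cox8b and Cox8a UMIs there and 6.19% over all libraries in the Mmp3 and Gdf10 cluster. Adventitial fibroblast-like cells stood at 0.885%, and none of the 316 UMIs of the pair in general capillary-like cells was Cox8b, which allows a share of up to 1.16%. Cox7a1, another muscle form, made up 4.63% (3.04 to 6.71) of the Cox7a1 and Cox7a2 UMIs in alveolar macrophage-like cells and 2.38% in AT2-like cells, and no UMI of it fell in the shared T-like cluster.

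Cox4i2, a form of subunit 4 known for its expression in lung (chr2:152754173-152765037, plus strand), and Ndufa4l2, a hypoxia-responsive relative of Ndufa4 (chr10:127514967-127517154, plus strand), both peaked in the smooth muscle- or myofibroblast-like class. Cox4i2 made up 19.2%, 9.52% and 27.2% of its pair with Cox4i1 there, and 17.5% (14 to 21.5) over all libraries, against 1.59% in AT2-like cells and 0.135% in ciliated-like cells. Ndufa4l2 made up 35.6%, 19.7% and 31.4% of its pair with Ndufa4, CONV being lowest for both genes. Both were concentrated in the 9 cells of that class with a UMI of Higd1b, a pericyte marker, a split also chosen after seeing the values: Cox4i2 reached 72.4% of its pair there and Ndufa4l2 93.1%, against 8.5% and 18.9% in the 99 others. Of these 9 cells 5 came from NI, 0 from CONV and 4 from FLASH. Adventitial fibroblast-like cells were the other class with Ndufa4l2, at 9.41% over all libraries. Atp5g1, Atp5g2 and Atp5g3 encode the same mature ring subunit of complex V and Cox5a and Cox5b are partners rather than alternatives, so no pair share was formed for them.

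**Figure D3:**
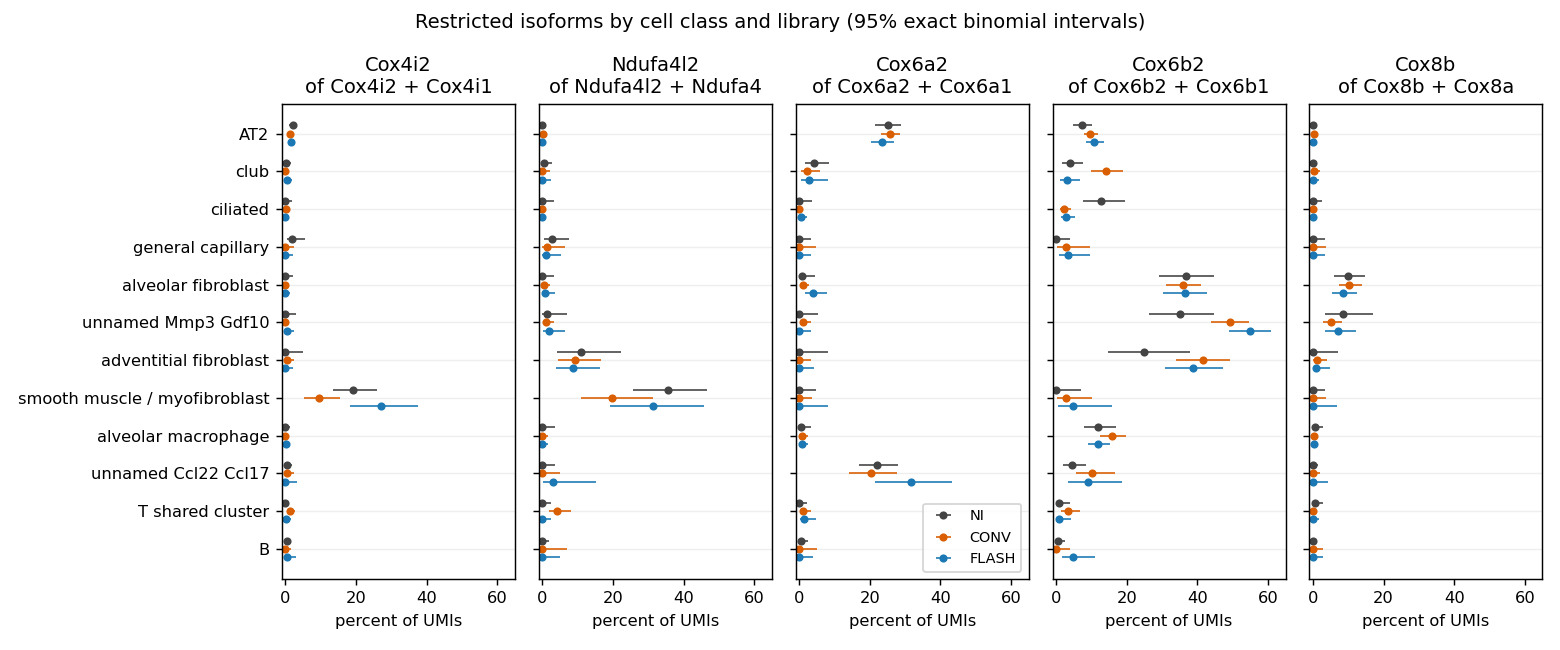
Share of 5 paralogs in the UMIs of the pair each forms with its common counterpart (horizontal axis, percent), in 12 classes (vertical axis) and 3 libraries (1 point each, exact 95% binomial intervals for counting error), 1 panel per paralog. Cox6a2 stands out in AT2-like cells at 25.1%, 25.8% and 23.3% and in the Ccl22 and Ccl17 cluster, Cox6b2 in the fibroblast classes, Cox8b in alveolar fibroblast-like cells, and Cox4i2 and Ndufa4l2 in the smooth muscle- or myofibroblast-like class.

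The promoters of 2 of these pairs are shown as examples, chosen because the common and the restricted form differ in both expression and start region. The windows run from 250 bases before to 50 bases after the gene's start and come from RefSeq on GRCm38.p6. The pairs are Cox6b1 (chr7:30626065-30626364, minus strand) and Cox6b2 (chr7:4753045-4753344, minus strand), and Cox8a (chr19:7217567-7217866, minus strand) and Cox8b (chr7:140900397-140900696, minus strand), each written 5′ to 3′. Capitals mark the ETS-type motif CCGGAAG, or its reverse complement CTTCCGG, and the TATA box letters TATAAA.
Cox6b1: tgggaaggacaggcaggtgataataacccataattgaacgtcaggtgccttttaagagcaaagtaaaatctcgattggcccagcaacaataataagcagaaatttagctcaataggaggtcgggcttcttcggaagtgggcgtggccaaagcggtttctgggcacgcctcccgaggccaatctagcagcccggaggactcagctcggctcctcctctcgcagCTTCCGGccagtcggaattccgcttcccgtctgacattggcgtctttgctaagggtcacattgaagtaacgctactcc
Cox6b2: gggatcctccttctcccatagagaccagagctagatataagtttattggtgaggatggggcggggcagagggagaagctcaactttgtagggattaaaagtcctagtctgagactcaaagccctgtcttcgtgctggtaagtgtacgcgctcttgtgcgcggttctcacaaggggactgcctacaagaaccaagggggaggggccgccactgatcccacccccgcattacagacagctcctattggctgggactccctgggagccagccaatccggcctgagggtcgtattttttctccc
Cox8a: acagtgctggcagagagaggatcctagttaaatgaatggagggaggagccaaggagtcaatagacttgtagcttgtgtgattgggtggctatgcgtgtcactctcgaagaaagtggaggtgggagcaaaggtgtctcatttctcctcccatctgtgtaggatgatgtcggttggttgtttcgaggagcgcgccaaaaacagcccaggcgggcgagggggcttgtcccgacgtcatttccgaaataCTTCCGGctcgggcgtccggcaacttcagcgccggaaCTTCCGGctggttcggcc
Cox8b: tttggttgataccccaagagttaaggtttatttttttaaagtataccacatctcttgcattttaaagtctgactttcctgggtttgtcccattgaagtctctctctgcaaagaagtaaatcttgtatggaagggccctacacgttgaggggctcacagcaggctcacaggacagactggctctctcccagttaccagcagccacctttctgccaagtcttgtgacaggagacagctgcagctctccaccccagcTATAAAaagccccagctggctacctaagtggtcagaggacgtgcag
The broadly expressed Cox6b1 and Cox8a each hold the ETS-type letters and 17 and 19 CpG dinucleotides. Cox6b2 holds none of the motifs searched and 10 CpG, and Cox8b holds TATAAA and 2 CpG. Not every pair with windows differed in this way. Cox7b held 5 CpG and none of the motifs, whereas Cox7b2 held 10 CpG and TATAAA. Cox7a2, with 20 CpG, and Cox7a1, with 7, both held none of the motifs. Of the 88 nuclear members 70 had a window in the table. The letters GCGCATGCG, the core of the NRF1 consensus, searched on both strands like every motif here, lay in 14.3% of the 70 windows against 1.81% of all 27025 windows of the same length. The ETS-type letters lay in 20% against 9.12%, the YY1 letters AAGATGGC in 11.4% against 2.88%, and TATAAA in 10% against 14.2%. At least 1 of the NRF1, ETS and YY1 motifs lay in 28 of the 70 member windows, or 40%, against 13% of all windows, and the median member window held 19 CpG against 7. The windows of all genes were not matched to those of the members in CpG or expression. The part of CpG content in the motif shares was not tested. A match describes these letters only and shows no binding.

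Between the irradiated libraries and the control the mitochondrial sum was lower and the nuclear sum was close to level in most classes. Among the 8 classes with at least 40 cells per library, the mitochondrial share over that of NI was below 1 in all 8 in CONV, at 0.769 to 0.958 with a median of 0.902, and in all 8 in FLASH, at 0.808 to 0.929 with a median of 0.894, scaled by all UMIs. When the ratios were divided instead by the median ratio of all genes tested in the class, 5 of 8 classes remained below 1 in CONV and 6 of 8 in FLASH. With the shared cluster in place of the whole T-like class these were 6 and 7 of 8. The median log2 ratio of all genes tested, which that second scaling subtracts, was −0.75 in CONV and −0.88 in FLASH in the T-like class, and in the other 7 classes lay between −0.20 and 0.12 and between −0.23 and 0.06. The nuclear sum had median ratios of 0.992 in CONV and 0.996 in FLASH, and in both comparisons its interval lay above 1 in 1 class, below 1 in 2 and across 1 in 5. Both comparisons use the same control library.

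Class by class, alveolar fibroblast-like cells had a mitochondrial share of 2.60% in NI, 2.19% in CONV and 2.29% in FLASH beside a nuclear share of 2.17%, 2.15% and 2.15%. B-like cells stood at 4.38%, 3.90% and 3.72% mitochondrial beside 1.81%, 1.84% and 1.87% nuclear, and NK-like cells at 3.18%, 3.04% and 2.85% beside 2.22%, 2.14% and 2.06%. Alveolar macrophage-like cells had 4.09%, 3.74% and 3.64% mitochondrial and 2.52%, 2.43% and 2.52% nuclear. The control was the highest library on the mitochondrial side in each of these. General capillary-like cells, whose cluster also carried artery and vein markers, were at 3.28%, 2.88% and 2.94% mitochondrial with a nuclear share that was lowest in NI, at 2.12%, 2.36% and 2.41%. The Ccl22 and Ccl17 cluster was at 3.31%, 2.55% and 2.68% mitochondrial and 2.23%, 2.30% and 2.32% nuclear. Among classes with 20 to 40 cells in a library, adventitial fibroblast-like cells showed the same arrangement, at 3.52%, 2.48% and 2.59% against 1.65%, 1.82% and 1.85%. Their mitochondrial ratio in CONV, 0.704, was the lowest of the 17 classes. Not all of the smaller classes did so. Club-like cells had 2.86%, 2.90% and 2.77% mitochondrial. The nuclear share was highest in NI in classical monocyte-like cells, at 2.46%, 2.25% and 2.21%, and in ciliated-like cells, at 3.36%, 2.86% and 3.29%.

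The T-like class was the exception. Its nuclear share was 2.97% in NI, 1.80% in CONV and 1.74% in FLASH, beside a mitochondrial share of 3.60%, 3.42% and 3.31%, so that its nuclear to mitochondrial ratio over that of NI was 0.638 and 0.637 when that of 7 of the 8 classes was above 1. The control cells of the immature T clusters stood at 3.18% nuclear. In the cluster that all libraries filled, the nuclear share was 1.80%, 1.74% and 1.72% and the mitochondrial share 3.72%, 3.44% and 3.31%. Over 17 classes NI had the highest mitochondrial share in 16 and the highest nuclear share in 8, and FLASH was above CONV in 8 of 17 for each.

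**Figure D4:**
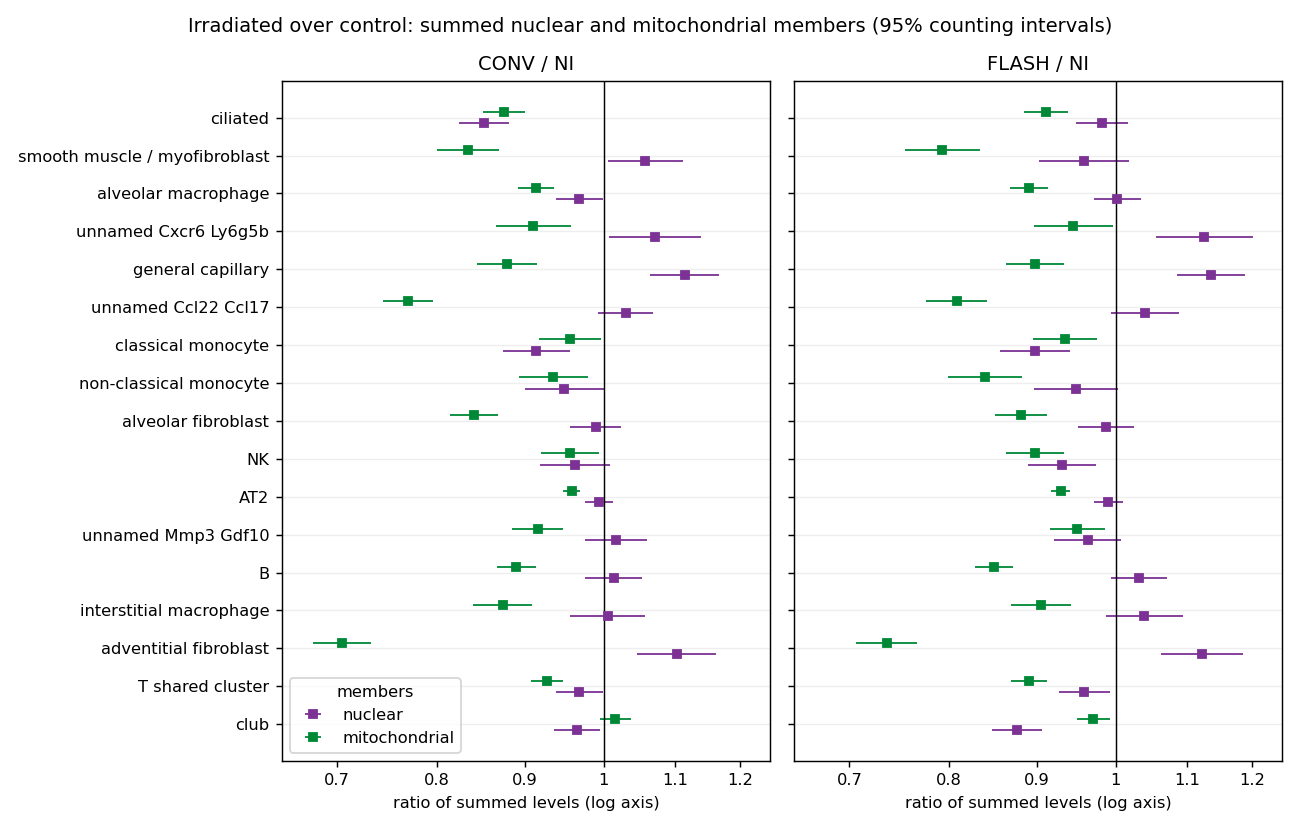
Ratio of the summed nuclear and summed mitochondrial share of UMIs, CONV over NI and FLASH over NI (log axis, line at 1), by class, with exact 95% intervals for counting error. The shared T-like cluster stands for the T-like class. With scaling by all UMIs the mitochondrial ratios lie below 1 in all 8 classes with at least 40 cells, and the nuclear ratios drawn scatter around 1. Under scaling by the median gene, with the whole T-like class, 5 and 6 of 8 mitochondrial ratios lie below 1. The whole T-like class, whose nuclear ratios of 0.605 and 0.585 were the lowest of the 8, is not drawn.

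The summed complexes differed in their ratio to the control, and so did genes within a complex. Mitochondrial complex V was mostly mt-Atp6 (141706 of 144302 UMIs). Mitochondrial complex I includes mt-Nd2, whose level was above NI, as given below. For the mitochondrial genes, scaled by all UMIs, the median ratio to NI over the 8 classes was 0.746 in CONV and 0.731 in FLASH for complex III (mt-Cytb alone), 0.853 and 0.824 for complex V, 0.945 and 0.927 for complex IV and 0.922 and 0.934 for complex I. Under scaling by the median gene these medians kept their side of 1, at 0.816 and 0.820 for complex III, 0.920 and 0.912 for complex V, 0.970 and 0.980 for complex IV and 0.969 and 0.993 for complex I, with 7 of 8 classes below NI for complex III in both. The nuclear genes of complex IV had medians of 1.06 and 1.06, with intervals above 1 in 3 classes in CONV and 4 in FLASH, whereas nuclear complexes I, III and V lay at 0.969, 0.965 and 0.968 in CONV and 0.983, 0.973 and 0.959 in FLASH. Under the other scaling nuclear complex IV was at 1.08 and 1.12, while complexes I, III and V crossed to 1.03, 1.01 and 1.04 in CONV and 1.02, 1.11 and 1.04 in FLASH. Between the irradiated libraries differences were smaller: FLASH over CONV had a median of 0.972 for the mitochondrial sum, with intervals above 1 in 2 classes and below in 5, and of 1.00 for the nuclear sum.

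Depth and RNA quality differed beside these values. In AT2-like cells the median depth was 6466 UMIs in NI, 3863 in CONV and 3192 in FLASH. When each cell was thinned to 1000 UMIs, leaving out 10 shallower cells, AT2-like cells held a median of 51, 51 and 48 mitochondrial and 21, 20 and 20 nuclear UMIs. B-like cells held 43, 38 and 36 mitochondrial and 18, 18 and 18 nuclear UMIs after thinning. Malat1, a nuclear RNA whose share is often read as a sign of damaged cells, took a median over the 17 classes of 2.55%, 2.33% and 2.62% of UMIs, and was above NI in 8 classes in CONV and 12 in FLASH. The part of depth, RNA quality and the mitochondrial limit in the lower mitochondrial sums was not tested beyond these values and the alternative limits.

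The mix of mitochondrial transcripts also differed between the control and both irradiated libraries, which a ratio within the mitochondrial sum shows whatever the scaling. The clearest case was mt-Nd2 (chrM:3914-4951, plus strand), a proton-pumping subunit of complex I. Its share of the mitochondrial sum over all kept cells was 3.56% (3.48 to 3.63) in NI, 5.33% (5.24 to 5.41) in CONV and 5.46% (5.35 to 5.56) in FLASH. In AT2-like cells it was 5.35%, 6.29% and 6.69%, in the shared T-like cluster 2.59%, 3.88% and 4.03%, in alveolar fibroblast-like cells 3.18%, 4.07% and 4.39% and in ciliated-like cells 6.02%, 7.38% and 6.71%. The share was higher than in NI in 17 of 17 classes in both CONV and FLASH, with median ratios of 1.31 and 1.38, and its interval lay above 1 in 14 and 13 of them. The level of mt-Nd2 itself, scaled by all UMIs, was above NI in 8 of 8 classes, with medians of 1.16 in CONV and 1.22 in FLASH, and in 7 and 8 of 8 under scaling by the median gene.

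Other mitochondrial genes shared the direction of mt-Nd2. The share of mt-Co1 (chrM:5328-6872), the catalytic subunit of complex IV, was above that of NI in 17 classes in CONV and 16 in FLASH, with median ratios of 1.09 and 1.11. The less abundant mt-Nd3 was above in 16 and 16 classes (1.24 and 1.31), mt-Nd4l in 14 and 14 (1.19 and 1.45) and mt-Atp8 in 13 and 13 (1.18 and 1.35), with few of the intervals of the latter pair apart from 1.

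On the other side stood mt-Cytb (chrM:14145-15288, plus strand), at 11.3%, 10.2% and 10.2% of the mitochondrial sum in AT2-like cells and 10.6%, 8.89% and 8.70% in the shared T-like cluster. Its share was above that of NI in 0 of 17 classes in CONV and 1 in FLASH, with median ratios of 0.882 and 0.872. The share of mt-Atp6 was above NI in 1 class and 0 (0.95 and 0.943) and that of mt-Nd1 in 4 and 2 (0.952 and 0.947). That of mt-Nd4 was above NI in 6 and 4 classes (0.912 and 0.931). Since mt-Atp6 overlaps mt-Atp8 and mt-Nd4 overlaps mt-Nd4l, overlapping neighbours went opposite ways by their medians. How reads were split within these pairs was not tested. The ratios of mt-Co3 lay near 1, at 0.989 and 0.984, with 5 classes above in each. These are shares of 1 sum, so a higher share of 1 gene lowers those of the others, and because they compare single libraries a difference between runs cannot be told apart from one between the groups. Between FLASH and CONV the median share ratio of mt-Nd2 was 1.05.

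**Figure D5:**
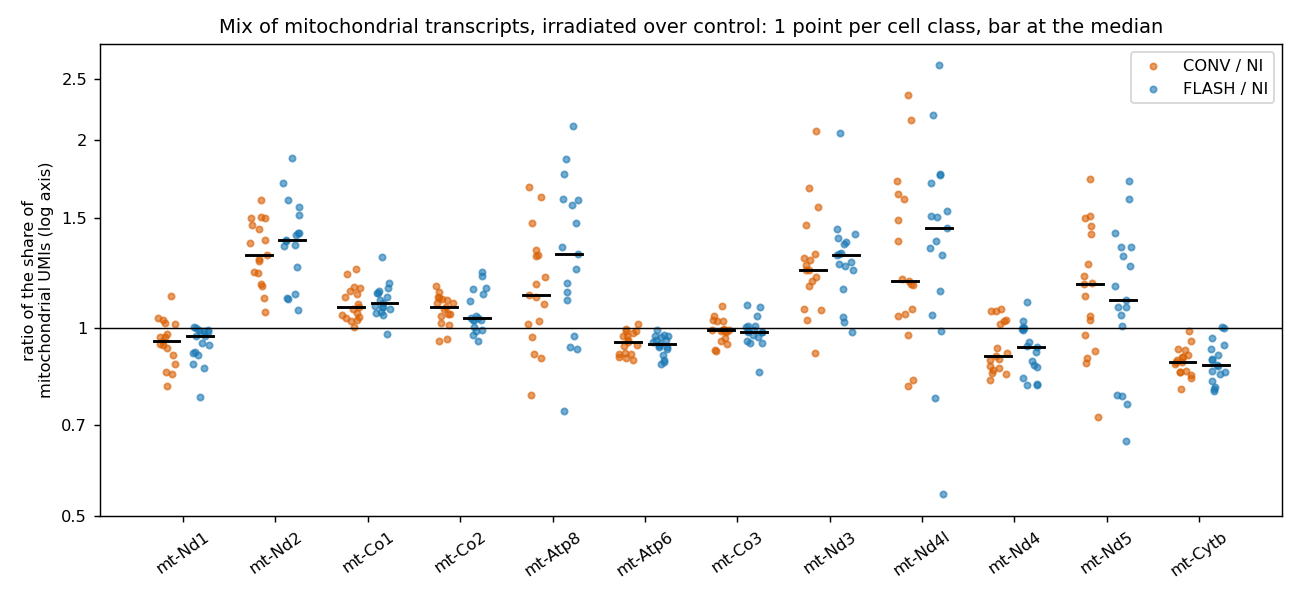
Ratio of each mitochondrial gene's share of the mitochondrial sum, CONV over NI and FLASH over NI (log axis, line at 1), for 12 genes, 1 point per class and a bar at the median over 17 classes. The shared T-like cluster stands for the T-like class. Every point of mt-Nd2 lies above 1, with medians of 1.31 and 1.38, and the medians of mt-Cytb lie at 0.882 and 0.872.

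Few single nuclear members differed by much between libraries outside the T-like class. A pair of member and class counted as different when the levels differed by at least 1.5 times and the higher library held at least 30 UMIs, a rule of size with no test. That floor was passed in at least 1 of the 8 classes by 79 of the 88 nuclear members for CONV over NI and for FLASH over NI and by 76 for FLASH over CONV. With the T-like class set aside, CONV was higher than NI in 6 and lower in 14 of 431 pairs, where 10.7% and 10.2% of the pairs of all genes were. FLASH was higher than NI in 14 and lower in 16 of 430 pairs, beside 7.75% and 12.7% of all pairs. FLASH was higher than CONV in 5 and lower in 8 of 412 pairs, beside 3.7% and 6.75%. The part of abundance in these counts was not tested.

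With the T-like class included, CONV was lower than NI in 73 of 509 pairs, or 14.3% beside 25.2% of the pairs of all genes. FLASH was lower in 78 of 508, or 15.4% beside 29.9%. CONV was higher in 6 (1.18% beside 9.5%) and FLASH in 14 (2.76% beside 6.82%). For the mitochondrial members in the same 8 classes, 2 of 93 pairs were lower in CONV and 0 higher, and in FLASH 1 was higher and 2 lower of 89. Of the 78 nuclear members with enough UMIs in T-like cells, 59 were lower in CONV and 62 in FLASH, in a class where 58.1% and 64.8% of all genes tested were. Ranked by the interval bound nearest to 1, the leading members were the complex I genes Ndufb8 (313 CPM in NI, 106 in CONV and 90.6 in FLASH) and Ndufs5 (0.260 in FLASH), with Atp5k (0.363 in CONV), Ndufc2 (0.345 in CONV) and Uqcr11 (0.355 in FLASH). Lower ratios rested on few UMIs, the lowest being that of Cox6b2 in FLASH, at 0.117 from 53 UMIs in NI and 1 in FLASH. The control side of these values holds the immature T clusters.

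In AT2-like cells 1 of 75 nuclear members was higher in CONV and 1 lower, where 13% and 6% of all genes tested were, and 2 of 74 were higher in FLASH and 1 lower, beside 8.82% and 8%. Uqcrc1, a core subunit of complex III, stood at 84.9 CPM in NI (75 UMIs) and 52.7 in CONV (83 UMIs), a ratio of 0.620 (0.449 to 0.859). Ndufv3, a subunit of the NADH-oxidising module of complex I, was at 0.652 (0.517 to 0.821) in FLASH. Cox6b2 was at 1.55 in CONV and 1.74 in FLASH. The median log2 ratio of the nuclear members was −0.04 in CONV and 0.01 in FLASH, beside 0.08 and −0.01 for all genes tested, and that of the mitochondrial members 0.02 and −0.06.

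In general capillary-like cells 2 of 55 nuclear members were higher in CONV and 2 lower, beside 13% and 22.5% of all genes tested, and 4 of 60 were higher in FLASH and 4 lower, beside 10.9% and 20.5%. Cox4i1 was at 779 CPM in NI and 1201 in FLASH, a ratio of 1.54 (1.23 to 1.93), and Ndufa6 at 295 and 506, a ratio of 1.72 (1.2 to 2.46). Ndufa12 had a ratio of 1.82 in FLASH, Atp5g2 one of 1.67 in CONV and Cox5a, a nuclear subunit of complex IV, one of 1.62 in CONV. Uqcrc1 was again lower, at 285 CPM in NI, 125 in CONV and 190 in FLASH, from 57, 17 and 27 UMIs. Between the irradiated libraries, Cox5b was at 494 CPM in CONV and 316 in FLASH in these cells, and mt-Nd3 at 384 and 590.

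In alveolar fibroblast-like cells 2 of 68 nuclear members were higher in CONV and 2 lower, beside 14.3% and 5.76% of all genes tested, and 3 of 68 were higher in FLASH and 2 lower, beside 10.3% and 9.09%. Atp5g3, 1 of 3 genes for the ring subunit of complex V (chr2:73908447-73911326, minus strand), stood at 131 CPM in NI, 255 in CONV and 205 in FLASH, with ratios of 1.94 (1.29 to 3.02) and 1.56 (0.991 to 2.52). Atp5j, a stalk subunit, was lower in CONV at 383 against 637 CPM, a ratio of 0.601 (0.481 to 0.752), and Atp5b, a catalytic subunit, lower in FLASH at 0.663. FLASH over CONV was 1.65 for Uqcrc2 and 0.599 for Ndufa8. Members of complex V stood on both sides in these cells. In alveolar macrophage-like cells Ndufb9 was at 307, 199 and 192 CPM, with ratios of 0.649 and 0.625.

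In lymphoid classes and the Ccl22 and Ccl17 cluster the members past the fold were again scattered. In B-like cells Cox7b was at 1.64 (1.18 to 2.27) in FLASH and Ndufs7 at 0.566 in CONV. In NK-like cells Cox5a was at 0.641 in CONV, where capillary-like cells had 1.62, and Ndufa3 at 0.658 in FLASH. In the Ccl22 and Ccl17 cluster mt-Cytb stood at 3109, 2031 and 2019 CPM, with ratios of 0.653 (0.581 to 0.734) and 0.649 (0.559 to 0.751). There Cox7a2l was at 618 CPM in NI, 401 in CONV and 658 in FLASH, and Atp5g3 at 1.87 in FLASH.

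Other genes of mitochondrial energy metabolism were counted in the same 7 classes, without the T-like one. The counts stand beside 10.7% of all pairs higher and 10.2% lower in CONV, and 7.75% and 12.7% in FLASH. None of these shares was tested against the others. Of complex II, which feeds electrons to ubiquinone and has 4 genes, 2 of 16 pairs (12.5%) were lower in CONV and 4 of 13 (30.8%) in FLASH, with 0 higher. Sdhd, an anchor subunit, was at 0.597 in AT2-like cells in CONV, and Sdhb, the iron-sulphur subunit, at 0.562 in NK-like cells in FLASH. Of 10 other subunits and carriers, 1 of 49 pairs was higher and 2 lower in CONV, and 1 of 48 higher and 2 lower in FLASH. Etfb, which carries electrons from fatty acid oxidation, of AT2-like cells stood at 353 CPM in NI and 213 in CONV, with a ratio of 0.602 (0.514 to 0.705). Cyc1, the cytochrome c1 of complex III, was past the fold only for FLASH over CONV in the Ccl22 and Ccl17 cluster, at 0.666, among the 7 classes. Of 24 assembly factors without the prefixes, 0 pairs were higher and 4 of 18 lower in CONV, and 0 higher and 2 of 19 lower in FLASH. Surf1, an assembly factor of complex IV, was at 0.579 in alveolar fibroblast-like cells in CONV and 0.610 in AT2-like cells in FLASH.

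Upstream of the chain, 17 genes of the citric acid cycle gave 0 pairs higher and 6 of 34 lower (17.6%) in CONV, and 1 higher and 5 lower (17.2%) of 29 in FLASH, beside 10.2% and 12.7% lower among all pairs. In AT2-like cells the isocitrate dehydrogenase genes Idh2 (168 CPM in NI, 95.8 in CONV, a ratio of 0.572) and Idh3g (0.641 in CONV and 0.563 in FLASH) were among the lower ones. Of 19 glycolysis genes, 1 of 47 pairs was higher and 2 lower in CONV and 0 of 50 higher and 3 lower in FLASH, with 4.26% and 6% lower beside 10.2% and 12.7% of all pairs. The lactate transporter Slc16a1 was at 0.552 and 0.540 in AT2-like cells. Of 24 genes of mitochondrial biogenesis and gene expression, 2 of 14 pairs were higher (14.3%) and 1 lower (7.14%) in CONV, beside 10.7% and 10.2% of all pairs, and 0 of 7 were past the fold in FLASH. In AT2-like cells Tfam, which packages mitochondrial DNA and starts its transcription, stood at 14.7 CPM in NI and 25.4 in CONV, with a ratio of 1.73 that rests on 13 and 40 UMIs. Few genes of this list reached the floor.

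Around the chain, 9 genes of peroxide and superoxide defence gave 2 of 34 pairs higher (5.88%) and 4 lower (11.8%) in CONV. Among all pairs 10.7% were higher and 10.2% lower. In FLASH 3 of 32 were higher (9.38%) and 1 lower (3.1%), beside 7.75% and 12.7% of all pairs. The mitochondrial superoxide dismutase Sod2 was at 1.52 and 1.69 in alveolar fibroblast-like cells and at 0.658 in alveolar macrophage-like cells in CONV. Of 11 genes of mitochondrial stress and chaperones, 3 of 23 pairs were higher and 2 lower in CONV and 2 of 27 higher and 2 lower in FLASH, or 13% and 8.7% beside 10.7% and 10.2%, and 7.41% and 7.41% beside 7.75% and 12.7%. Gdf15, a secreted stress signal, had levels of 7.92, 48.9 and 50.7 CPM among AT2-like cells, from 7 UMIs in NI. The 8 p53 targets of metabolism had the most pairs past the fold for their number, 5 of 8 higher in CONV and 4 of 7 in FLASH, with 0 lower. All but 1 of these were Bax, which acts on the outer mitochondrial membrane in cell death. Bax stood at 58.9, 165 and 178 CPM among AT2-like cells, and its ratios were 2.66 and 3.41 in general capillary-like, 2.00 and 2.27 in alveolar fibroblast-like and 2.08 and 1.66 in B-like cells. Between FLASH and CONV, 3.7% of all pairs were higher and 6.75% lower in these classes. No pair was past the fold for complex II (of 13), the citric acid cycle (of 32), glycolysis (of 49) or mitochondrial stress (of 23). Assembly factors had 1 higher and 1 lower of 17, and peroxide defence 1 and 1 of 33. Other subunits and carriers had 0 higher and 2 lower of 43, biogenesis 0 and 1 of 10, and p53 targets 0 and 1 of 9.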

How the data were processed

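The deposited values were raw whole-number UMI counts for each gene in each barcode, made by the authors with Cell Ranger 2.0 on mm10, per the submitters' processing notes. Depth was 7114360 UMIs in NI, 7463259 in CONV and 5498902 in FLASH, and it sets the width of each interval. Cells needed 200 detected genes and no more than 10% mitochondrial UMIs (50 and 154 barcodes failed), and Scrublet's top-scoring 0.8% per 1000 barcodes (121) went out as doublets (9 of them outside a limit too), since its automatic threshold marked 0.585%. Cells were clustered by Leiden at resolution 1 on 2000 variable genes without the members, 30 components and 15 neighbours. Clusters were named from markers, with limits set after seeing the data. UMIs were summed per class and library, with exact binomial, Poisson and conditional binomial intervals at 95%. The ratio computation was tested on simulated data. Named genes are the 13 mitochondrial members, the 3 most abundant per nuclear complex, paralogs, and up to 3 members per class, comparison and direction past 1.5 times, ranked by the interval bound nearest to 1. Of the other lists, up to 3 genes each with the largest ratio were eligible. Idh2, Surf1, Sod2, Cyc1, members peaking in a class, the Siglech and Higd1b splits, and mt-Nd2 settings were chosen after their values were seen. Members and lists were chosen with earlier results of these data known. Motifs were searched in RefSeq windows on GRCm38.p6, and positions come from GENCODE M21. Tools were scanpy 1.11.5, igraph 0.11.9, scikit-learn 1.9.0, scipy 1.17.1 and numpy 2.4.6 under Python 3.11.15.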

Additional observations from a re-analysis of the deposited data

Results flagged for a closer look

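Classes moved in opposite directions, beyond their counting intervals, in 4 cases outside the T-like class, and none of these differences between classes was tested. Cox5a in CONV over NI was 1.62 (1.03 to 2.56) in general capillary-like cells and 0.641 (0.402 to 0.995) in NK-like cells. Both intervals came close to 1, and 431 pairs of nuclear member and class passed the floor in that comparison. The summed nuclear members in CONV over NI were at 1.12 in general capillary-like and 0.968 in alveolar macrophage-like cells. In FLASH over NI they were at 1.14 in general capillary-like and 0.93 in NK-like cells. The summed mitochondrial members in FLASH over CONV were at 1.05 in the unnamed Ccl22 and Ccl17 cluster and 0.938 in NK-like cells.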

How the results depend on the processing

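Values below are mean log2 ratios over the 8 classes with at least 40 cells, scaled by all UMIs, unless a setting is named. Alternatives chosen after seeing the data are called added. The nuclear sum was −0.0789 in CONV over NI and −0.0778 in FLASH over NI. It turned positive under the median ratio of tested genes (0.056 and 0.1143) and without the control-rich T-like clusters (0.0058 and 0.0113). It was also positive with the median ratio and those clusters left out together (added, 0.0464 and 0.1033). Under the median of genes with 60 UMIs in both libraries together it was 0.0215 and 0.0472 (added). It moved towards 0 with a mitochondrial limit of 5% (−0.0501 and −0.0451) or none (−0.0061 and −0.0041), at least 500 genes (−0.0138 and −0.0009), no doublets removed (−0.0319 and −0.0353), members left among the variable genes (−0.0439 and −0.0539), resolution 0.6 (−0.0077 and −0.0131) or 1.5 (−0.0538 and −0.0474) and classes of 20 cells (−0.045 and −0.0469), and in CONV with a limit of 20% (−0.0604). FLASH over CONV was 0.0011, and 0.0453 under the median ratio and 0.0455 with both together.

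The mitochondrial sum was −0.1646 in CONV over NI and −0.1794 in FLASH over NI. Under the median ratio these were −0.0297 and 0.0128, a reversal in FLASH that the 60 UMI median did not show. With a 5% limit they were −0.099 and −0.1208. With the median ratio and the control-rich T-like clusters left out together they were −0.1282 and −0.0928 (added), under the 60 UMI median −0.0642 and −0.0544 (added), and FLASH with a 20% limit gave −0.1609. FLASH over CONV was −0.0148, and 0.0295 under the median ratio, 0.0062 at resolution 1.5 and 0.0241 with the median ratio and those clusters left out.

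The pairs of nuclear member and class past 1.5 times numbered 79 in CONV over NI and 92 in FLASH over NI. They numbered 42 and 45 under the median ratio, 47 and 58 with a 5% limit, 23 and 33 with none, 38 and 54 at 500 genes, 27 and 44 at resolution 0.6, 22 and 36 without the control-rich T-like clusters, 33 and 41 with these left out and the median ratio together (added), 34 and 45 under the 60 UMI median (added) and 177 and 194 at a lower fold. Classes of 20 cells gave 129 in CONV, and no doublets removed 61 in FLASH. FLASH over CONV had 13, and 23 with no doublets removed, 45 with 20-cell classes, 34 with a floor of 10 UMIs and 85 at a lower fold. The cause of these shifts was not tested. Over 9 settings the median share ratio of mt-Nd2 stayed between 1.31 and 1.38 in CONV and 1.38 and 1.41 in FLASH, with 16 of 17 classes above 1 in both with no mitochondrial limit and in CONV with members left among the variable genes. No paired analysis was possible because each group had 1 library. Depth limits the rarer members: the floor of 30 UMIs left 50 to 78 nuclear members per class in CONV over NI.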
